A study of Mus musculus with 148 samples.

Results

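The *Mcm6* 5′ gene body CpGs are the CpG cytosines, each strand counted on its own, at chr1:128343001-128357000 of GRCm38, which runs from *Mcm6* exon 10 back to exon 2. *Mcm6* lies on the minus strand at chr1:128331590-128359664 and has 17 exons, so this 14000 bp stretch begins 2664 bp and ends 16663 bp downstream of the annotated start. A CpG was included when it had more than 30 reads in a share of at least 0.5 of the samples. The files list 152 CpG cytosines here, of which 97 were included, 53 on the plus and 44 on the minus strand, at 61 CpG sites. The whole *Lct*–*Mcm6* locus has 1102 listed CpG cytosines, of which 668 had the same coverage, 571 of them outside the stretch.

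DNA modification (methylation and other cytosine modifications that block bisulfite conversion) was measured in enterocytes isolated by chelation from the villi of C57BL/6NCrl mice, a strain that another label spells C57BL/6MCrl. The small intestine was cut into 9 segments from stomach to colon. There were 71 samples from adults at P60 (8 per segment, and 7 in segment 6), 10 samples from infants at P6 (3 in segment 1, 3 in segment 3 and 4 in segment 7), and 67 from mice at P90 that drank milk in place of water for 60 days from P30. Of the P90 samples, 35 came from mice given lactose-containing milk (LAC+; 7 in each of segments 1, 3, 4, 7 and 8) and 32 from mice given lactose-free milk (lac-; 6, 6, 7, 6 and 7 in these segments). Sucrose was added to the LAC+ milk only, so lactose and sucrose cannot be told apart. The files hold no expression values against which the cell type could be checked, and the sex of the mice is not given in the sources used here.

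MCM6 is a subunit of the MCM2–7 helicase, which unwinds DNA at replication forks. Its gene is the upstream neighbour of the lactase gene *Lct*, and an intron nearer its 3′ end, outside the stretch described here, holds an enhancer of *Lct*. Methyl groups on CpGs are copied to the new strand after replication, and the bodies of transcribed genes are usually heavily methylated, whereas enhancers in use tend to be less so. In bisulfite sequencing an unmodified cytosine is read as T and a modified one as C, so that the share of C among the reads is the modification level of that cytosine.

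The sequences below are the stretches on which the results turn, from GRCm38, on the plus strand, with each CpG in capitals. *Mcm6* is transcribed from right to left in them. Intron 6 (chr1:128348585-128348793) and intron 3 (chr1:128353169-128353311) are shown because all their covered CpGs differed along the adult intestine, exon 4 (chr1:128351502-128351682) because its CpGs differed between segments 1 and 4, exon 2 (chr1:128355579-128355612) because it had the largest age differences, and intron 9 (chr1:128343932-128343988) because its CpGs came nearest to a diet difference.
intron 6: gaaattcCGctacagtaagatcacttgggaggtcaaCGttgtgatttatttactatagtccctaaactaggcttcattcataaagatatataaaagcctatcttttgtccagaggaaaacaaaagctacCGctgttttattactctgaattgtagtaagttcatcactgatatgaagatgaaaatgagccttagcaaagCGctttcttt
intron 3: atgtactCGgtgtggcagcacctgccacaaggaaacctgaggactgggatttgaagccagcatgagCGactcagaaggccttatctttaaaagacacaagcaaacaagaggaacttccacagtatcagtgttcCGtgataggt
exon 4: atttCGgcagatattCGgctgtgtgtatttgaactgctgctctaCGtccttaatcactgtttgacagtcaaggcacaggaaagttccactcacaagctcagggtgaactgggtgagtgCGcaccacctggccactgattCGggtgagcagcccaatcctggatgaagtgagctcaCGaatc
exon 2: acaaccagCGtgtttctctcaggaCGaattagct
intron 9: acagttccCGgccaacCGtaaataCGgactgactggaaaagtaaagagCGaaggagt

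Depth at these CpGs was high. The median number of reads per CpG ranged from 869 to 2939 across P60 samples, from 1211 to 2385 across P6 samples, from 484 to 5527 across lac- samples and from 845 to 5137 across LAC+ samples, and 88 of the 97 CpGs had more than 30 reads in every sample. Reads were not marked by molecule, so read numbers overstate the precision and the spread between samples was used as the error throughout. CpGs captured by the same padlock probe on the same strand share reads, and are not independent measurements. Of the 55 CpG cytosines left out, 45 had no read in any sample and the others had a median of at most 4 reads. The included CpGs with the thinnest coverage were 128353550 on the plus strand, with more than 30 reads in 77.7% of samples, and 128344147 on the plus strand, with 81.8%. The nearest below the limit, 128343941 and 128343949 on the minus strand, had them in 2.03%.

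The level was high at most of the CpGs. Averaged over the P60 samples, 52 were above 90%, 29 between 70% and 90%, and 16 below 70%, with a median of 90.8% beside 90.2% for the other CpGs of the locus. The mean over the 97 CpGs was 81.8% ± 0.82 in P60 segment 1 against 84.5% ± 0.42 in segment 9 (SD over 8 samples each), and is given without a test. Exon 6 (90.8% to 95%) and intron 5 (90.3% to 93.7%) were high at every CpG. The low CpGs lay in exon 2 (63.2% to 68.5%), at 1 site of intron 10 (128343056, 60.4%), in intron 6 (down to 58%), in exon 3 (128353550, 44.7%) and in intron 3, where 128353235 had the lowest level of any CpG read outside a probe arm, 35.1%. The level at 128353550 is uncertain. That CpG lay under no listed probe, had a median of 50 reads, and ran from 6.38% to 65.8% in single P60 samples.

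The 2 strands of a CpG gave nearly the same level. Of the 36 sites with both strands, 33 differed by less than 5 points, with a median of 1.05 and a maximum of 4.20 points. The other 3 had a low minus strand opposite a more modified plus strand: 1.70% against 92.5% at 128345996 in exon 8, 7.41% against 92.5% at 128349466 in exon 5, and 0.970% against 44.7% at 128353551 in exon 3. These minus-strand CpGs were covered only by the annealing arm of a listed probe, where a read of that probe copies the arm and not the mouse DNA. At 128349466 single P60 samples ran from 0.662% to 21.8%, and the source of its modified reads was not tested. Here the arm from the study's probe list and the reference are shown for the first of them, on the minus strand, chr1:128345996-128346020, with the base at the CpG in capitals.
arm over 128345996: tttttaggtaatgatgaagtaaaaT
reference at 128345996: ctttcaggcaatgatgaagtaaaaC
The arm ends in T where the reference has the C of the CpG, at its base 25, and the arms over the other 2 CpGs end in T in the same way, at bases 34 and 27. None of the 3 was called in any comparison. They stay in the counts of CpGs below, and no count of calls along the P60 segments or by age changed without them. Of the other CpGs, 85 were read between the arms of a listed probe and 9 lay under no listed probe.

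The adult intestine was compared along its 9 segments to ask whether these CpGs follow the position of the enterocyte. A quasi-binomial F test on the read counts, fitted at every cytosine of the locus, was corrected by Bonferroni over all CpGs and CpHs tested (CpH being a cytosine followed by any base but G), and a CpG was called at an adjusted p under 0.01. The 9 segments were cut from the same intestine, but the labels do not tie samples to mice, and the test took the 71 samples as independent. With the replicate number, or the number in the file name, as a block in place of the mouse, 19 of the calls below were kept. Of the 97 CpGs 21 were called, where 17.2% of all tested CpGs of the locus were. All 21 were higher in segment 9 than in segment 3, by 0.915 to 25.5 points (median 4.42). Their lowest segment was 1 in 10 cases, 2 in 5, 3 in 4 and 4 in 2, and their highest was 9 in 19 and 8 in 2. Among the 76 CpGs not called, 45 were higher in segment 9 than in segment 3, with a median difference of 0.18 points. Of the CpGs outside the stretch, 382 of 571 were higher, with a median of 0.43 points. The calls were 4 of the 52 CpGs above 90%, 11 of the 29 between 70% and 90%, and 6 of the 16 below 70%.

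**Figure D1:**
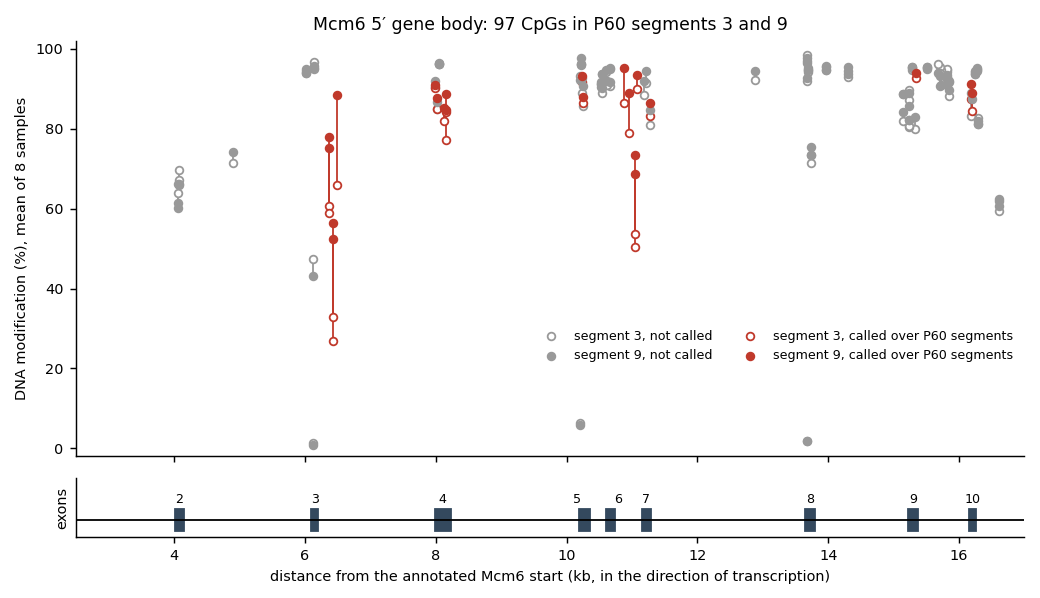
DNA modification (%, mean of 8 P60 samples) of the 97 CpGs in segment 3 (open) and segment 9 (filled), against distance from the annotated *Mcm6* start in kb, with exons 2 to 10 drawn below; red marks the 21 CpGs called over the 9 segments. The long red lines are intron 3, where the differences were 16.3 to 25.5 points, and intron 6, where they were 3.31 to 19.8 points, while the points near 0% are the 3 CpGs read only in a probe arm.

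The calls were gathered in a few features. All 5 CpGs of intron 3 and all 5 of intron 6 were called, as were 5 of 9 in exon 4, 2 of 6 in exon 10, 2 of 8 in exon 5, 1 of 8 in exon 9 and 1 of 4 in exon 7. None was called in intron 10, intron 9, intron 8, exon 8, intron 7, exon 6, intron 5, exon 3, intron 2 or exon 2. When CpGs within 500 bp of the next were joined, 4 runs held 3 or more calls: 8 of 25 CpGs from exon 7 to exon 5 (1076 bp), 5 of 9 in exon 4 (173 bp), 5 of 11 from intron 3 to intron 2 (471 bp) and 3 of 34 from intron 10 to intron 8 (1473 bp).

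In intron 3, the CpGs rose from segment 5 on and stayed level before it. At 128353235 on the plus strand, the CpG with the widest range of segment means, the 8 samples of segment 3 lay between 23.3% and 32.4% with a median of 26.3%. Those of segment 4 lay between 23.4% and 39% (median 27.9%), those of segment 7 between 31.9% and 49.8% (median 38.7%) and those of segment 9 between 48% and 55.5% (median 53%). Every sample of segment 9 lay above every sample of segments 3 and 4, and segments 4 and 1 overlapped. Segment 3 averaged 27% ± 2.87 and segment 9 52.5% ± 2.80 (SD over 8 samples each), a difference of 25.5 points with a standard error of 1.42. The adjusted p over the 9 segments was 3.84e-17, and segment 9 minus 3 had an exact permutation p of 0.000155, the smallest that 8 against 8 samples can give. Within lanes 5, 6 and 7 of the sequencer the difference was 25.8, 24 and 24.6 points. The opposite strand, 128353236, gave 33% in segment 3 and 56.4% in segment 9 (adjusted p = 7.51e-05).

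The next site of intron 3, 128353302, averaged 60.6% ± 3.90 in segment 3 and 77.9% ± 1.65 in segment 9 (SD over 8 samples each), with an adjusted p of 2.80e-17 over the segments. Its samples ran from 54% to 66.7% (median 60.5%) in segment 3 and from 74.9% to 80.3% (median 78.4%) in segment 9, without overlap. Its minus strand, 128353303, was called as well (58.9% and 75.2%, adjusted p = 9.31e-05). At 128353177, on the minus strand, the mean was 66% in segment 3 and 88.3% in segment 9 (adjusted p = 1.86e-13). From segment 1 to segment 4 the 5 CpGs of this intron moved by between -3.92 and 1.13 points.

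Intron 6 followed the same course at a higher level. At 128348622 on the minus strand, which had the lowest p of the stretch (adjusted p = 7.84e-18), the segment means were 55.9%, 52.9%, 53.6%, 56.6%, 62.1%, 64.7%, 67.9%, 71.3% and 73.4% from segment 1 to 9. The step from segment 4 to 9 was 16.8 points (standard error 1.82) and that from segment 1 to 4 was 0.72 points (standard error 1.91). Within lanes 5, 6 and 7 segment 9 exceeded segment 3 by 21.2, 21.3 and 15.3 points. The plus strand of this CpG, 128348621, was read in other molecules and went up between segments 3 and 9, from a mean of 50.4% ± 1.47 to one of 68.7% ± 1.75 (SD over 8 samples each) (adjusted p = 7.49e-13). At 128348714, read in the same molecules as 128348621, the mean was 78.9% in segment 3 and 88.9% in segment 9 (adjusted p = 1.93e-16), and the samples of these segments, 76% to 81.6% and 88.0% to 90.1%, did not overlap. At 128348593 the level was already near 90% in segments 1 to 3 and reached 93.3% in segment 9 (adjusted p = 7.18e-08). The fifth, 128348785, had a median of 177 reads and went from 86.4% to 95.1% (adjusted p = 0.000313).

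Exon 4 differed in the opposite end of the intestine. At 128351517 the segment means were 68.5%, 73.2%, 77.2%, 80.9%, 82%, 82.9%, 83.9%, 83.2% and 84.6% from segment 1 to 9 (adjusted p = 1.42e-14). The samples of segment 1 ran from 57.1% to 76.2% (median 69.4%) and those of segment 4 from 78.8% to 82.5% (median 81%), without overlap. That difference was 12.3 points (standard error 2.15), against 3.73 points (standard error 0.70) from segment 4 to 9. At 128351506, 11 bases away and in the same reads, segment 1 averaged 76% ± 3.91 and segment 4 86.6% ± 0.92 (SD over 8 samples each), with an adjusted p of 1.70e-13 over the segments. At 128351546 the same segments had 74.9% and 82.6% (adjusted p = 6.48e-08). The 9 CpGs of the exon were between 0.28 and 12.3 points higher in segment 4 than in segment 1, with a median of 4.22. This direction was common: outside the stretch 413 of 571 CpGs were higher in segment 4, with a median of 0.74 and at most 21.6 points. Whether the course along the intestine differs between exon 4 and the introns was not tested.

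**Figure D2:**
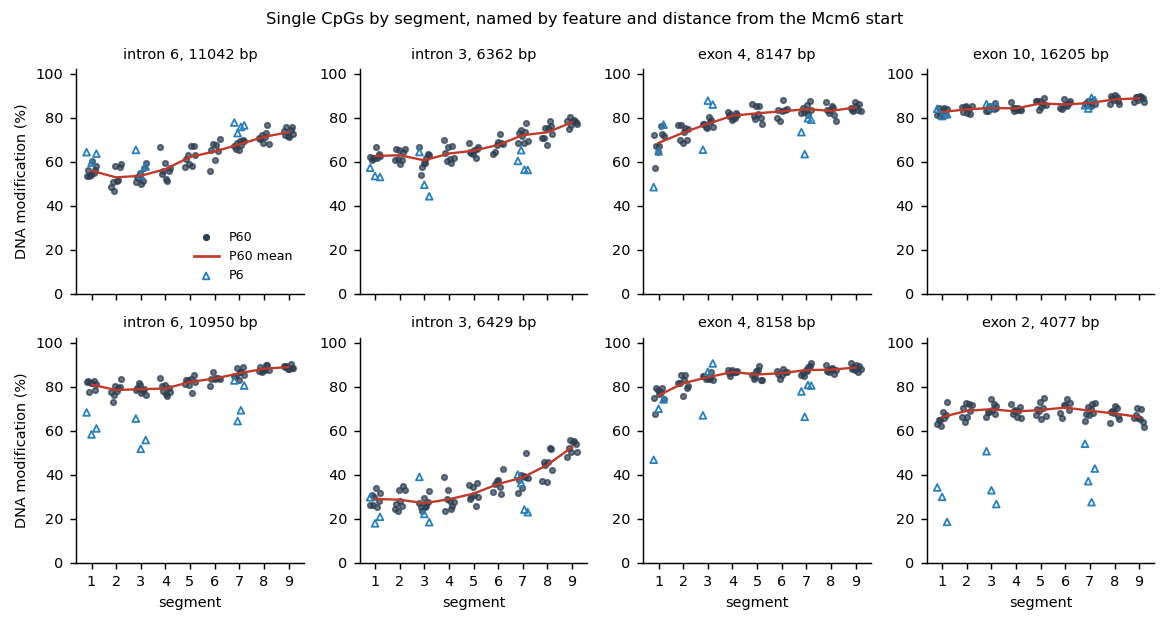
DNA modification (%) of 8 CpGs against intestinal segment, 1 panel per CpG; dots are single P60 samples, the line joins the P60 segment means and open triangles are single P6 samples. The intron 6 and intron 3 panels are level to segment 4 and rise from there to segment 9, the exon 4 panels rise between segments 1 and 4, and the exon 2 panel has P6 samples below every P60 sample.

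Smaller differences were called in the other exons. In exon 10, 128343459 averaged 84.4% ± 1.27 in segment 3 and 88.8% ± 1.13 in segment 9 (SD over 8 samples each), with an adjusted p of 8.91e-10, and its neighbour 128343479 from 87.5% to 91.2% (adjusted p = 8.67e-09). The called CpGs of exon 7 (128348392, 83.2% to 86.5%), exon 5 (128349420, 86.4% to 87.9%, and 128349435, 91.7% to 93.3%) and exon 9 (128344316, 92.6% to 94.0%) moved by 1.46 to 3.30 points. From segment 1 to 4 and from 4 to 9, 128349420 rose by 2.71 and 0.89 points and 128344316 by 1.97 and 0.49. For 128349435 these steps were 1.23 and 1.005 points, and for 128348392 2.23 and 2.46. In exon 10 they were 1.61 and 4.58 points at 128343459 and 0.63 and 3.72 at 128343479. Exon 2 had means between 63.2% and 68.5% and went from segment 3 to 9 by -4.85 to -1.44 points with no call, and intron 9 by -3.60 to 1.60 points with no call.

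Read without a model, 13 of the 97 CpGs had every segment 9 sample above every segment 3 sample, where 9.43% of the CpGs of the locus did, and 8.76% of those outside the stretch. Of the 13, 12 were among the 21 called, 4 of them in intron 6, 4 in intron 3 and 1 in exon 4. The calls came from these same samples, so this overlap is no separate check of them. None had every segment 9 sample below every segment 3 sample (0.599% over the locus).

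The P90 samples were read from 2 kinds of file, and this bears on every P90 value. The name of 41 of the 67 files carried the mark merged, 29 LAC+ and 12 lac-, and that of none of the P60 or P6 files. Only this mark was used, and what was merged is not known from it. All 7 LAC+ files of segment 1 and all 7 of segment 4 were merged, as were 4 of 6 and 5 of 7 lac- files there, against 4, 5 and 6 of 7 LAC+ files and 1 lac- file each in segments 3, 7 and 8. Within lac- segment 4, 128353235 had 50.7% to 59.2% in the 5 merged files and 22.3% and 27.8% in the other 2, and 128348622 had 65.7% to 69.4% against 48.4% and 48.8%. At 128351517 the order was the opposite, 67.3% to 72.5% in merged and 77.4% and 78.6% in other files. Merged lac- files stood above all others at 25 CpGs of the stretch in segment 4 and below at 15 (22% and 17.9% of all CpGs), and in segment 1 above at 35 and below at 8 (35.4% and 6.91%). One LAC+ file of segment 3, replicate 7, the only file of its lane, stood apart with 75.2% at 128353235 where the other 6 had 22.1% to 59%. The part of the merging in the differences between P90 groups was not tested beyond the values without those files.

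**Figure D3:**
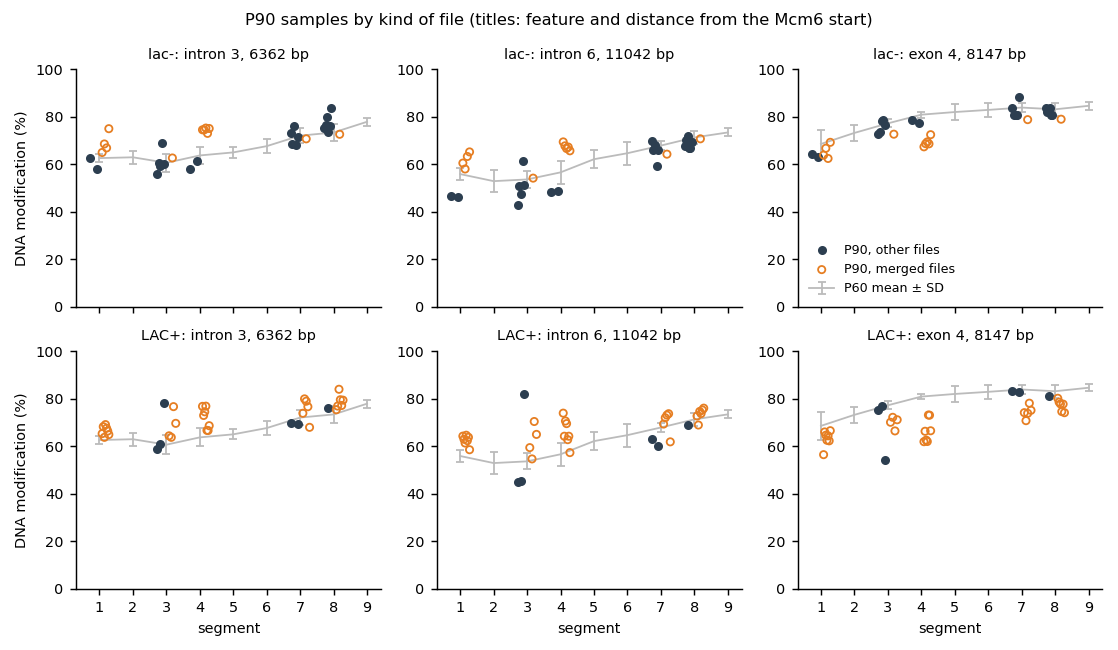
DNA modification (%) of the CpGs 128353302 (intron 3), 128348622 (intron 6) and 128351517 (exon 4) in lac- (upper row) and LAC+ (lower row) P90 samples against segment; filled dots are single files, open circles merged files, and the grey line is the P60 mean with its SD (n = 7 or 8). In lac- segment 4 every merged file lies above the other 2 at the intron 3 CpG, where the P60 mean is 63.7%.

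Along the segments of the P90 mice, 3 of 96 CpGs were called in lac- mice (4.05% over the locus) and 3 of 97 in LAC+ mice (4.33%). The lac- calls were all in exon 4, 128351517 (adjusted p = 6.94e-08), 128351546 and 128351506. At 128351517 the lac- samples of segment 1 ran from 62.4% to 69.2% (median 64%), those of segment 3 from 72.7% to 78.9% (median 75%) and those of segment 8 from 79% to 83.5% (median 82.1%), and these 3 segments did not overlap. With sequencing lane as a covariate none of these 3 was kept. The LAC+ calls were 128355588 in exon 2 (adjusted p = 0.000962), 128348593 in intron 6 (adjusted p = 0.00125) and 128351641 in exon 4. With the mark of a merged file as a covariate 1 of these 3 was kept, and limma called 0. At the exon 2 CpG, LAC+ segment 4 was highest with a mean of 81.6% ± 2.51 and segment 3 lowest with one of 69.1% ± 7.08 (SD over 7 samples each).

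The 21 CpGs called at P60 were then read in the P90 samples, which had no part in that call. All 21 were higher in segment 8 than in segment 3 in lac- mice (median 3.05 points) and in LAC+ mice (median 5.96 points). The other 76 CpGs were higher in 44 cases in lac- and in 59 in LAC+, and the CpGs outside the stretch in 395 and 440 of 571. CpGs outside the stretch that were called at P60 were not counted apart, here or in the P6 samples below. Whether the same holds for them was not tested. Without the merged files, all 21 were again higher in lac- segment 8 (median 2.96, at most 25.2 points), and without LAC+ segment 3 replicate 7, all 21 in LAC+ (median 5.00, at most 17.8 points).

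Single CpGs bore the same order in lac- mice. At 128353235, lac- segment 3 had 24.8% to 36.2% (median 29.7%) and segment 8 had 39.2% to 56.9% (median 49.3%), a difference of 18.2 points (standard error 2.99, exact permutation p = 0.00117). Without the merged files it was 19.2 points (standard error 3.48, exact permutation p = 0.00433). At 128348622 the lac- difference was 17.8 points (standard error 2.70) and without merged files 18.1 points (standard error 3.2), again with no overlap of the samples. In LAC+ mice the same CpG had 44.8% to 82.2% (median 59.4%) in segment 3 and 68.9% to 76% (median 73.7%) in segment 8. These overlapped, also without replicate 7, when the difference was 16.3 points (standard error 4.39, exact permutation p = 0.0035) in place of 12.7 points (standard error 5.25, exact permutation p = 0.0344). In all, 6 CpGs of the stretch had every lac- segment 8 sample above every segment 3 sample (2.75% over the locus), 8 without merged files (4.47%), and none of the latter comparison lay below (0.462%). In LAC+ mice the number above was 5 (2.99%), with 0 below (0%). Without replicate 7 of segment 3 it was 7 (5.54%), with 1 below (0.15%), 128343956 in intron 9. Of the 8 in lac-, 3 lay in intron 6, 3 in intron 3 and 1 in exon 4.

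Infant and adult enterocytes were compared in the same segments to ask which CpGs change with age. The P6 samples were all sequenced on 1 lane that held no other sample, so age and lane cannot be told apart, and a single library of 3 or 4 weighs much. In segment 1, 2 of 97 CpGs were called (0.624% over the locus), both in exon 2. With the replicate block neither was kept, and without P6 replicate 3 neither was kept either. At a minimum of 100 reads neither could be tested, as 1 of the 3 P6 samples had fewer. In segment 3 the call was 0 of 97 (0.623%) and in segment 7 0 of 97 (0.93%) by the quasi-binomial F test and also by limma, with 26 and 34 CpGs at an unadjusted p under 0.05. In segment 1, 38 were.

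Exon 2 was the largest difference by age. In P6 segment 1, 128355604 on the minus strand had 23.9%, 17% and 19.9%, and the 8 P60 samples lay between 54.5% and 69.8% with a median of 64.4% (adjusted p = 0.00121). Its neighbour on the same strand, 128355588, had 14.9%, 17.2% and 11.2% in P6 and 52.1% to 66% (median 61.5%) in P60 (adjusted p = 0.00139). These minus-strand CpGs had medians of 171 and 169 reads in P6 segment 1. On the plus strand, with a median of 1736 reads, 128355587 had 34.1%, 29.9% and 18.5% in P6 and 62% to 73.0% (median 65.3%) in P60, with an adjusted p of 0.0163, above the threshold. At 128355603 P6 had 30.2%, 22% and 15.6% and P60 50.4% to 69.6% (median 60.6%), with an adjusted p of 0.0508. All 4 CpGs were lower in every P6 than in every P60 sample of segment 1, by 38.5 to 46.6 points in the mean.

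The P6 samples of the other segments were more spread. In segment 3, 128355588 had 50.0%, 48.7% and 21.8% in P6 beside 61.9% to 77.1% (median 66.4%) in P60, and 128355587 had 50.6%, 32.9% and 26.6% beside 66.1% to 74.4% (median 68.9%). In segment 7, 128355587 had 54%, 37%, 27.5% and 42.8% beside 64.5% to 72.5% (median 68.8%), and 128355604 had 50.5%, 30.0%, 24.7% and 25.4% beside 56.5% to 78.5% (median 71.8%). The groups did not overlap at 3 of the 4 CpGs in segment 3 and at all 4 in segment 7, with mean differences of 27.1 to 37.2 and 21.4 to 37.1 points. For 128355587 the exact permutation p was 0.0121 in segments 1 and 3, the smallest that 3 against 8 samples can give, and 0.00404 in segment 7, the smallest for 4 against 8. The age by segment interaction called 0 of 97 CpGs (0% over the locus) by the quasi-binomial F test and 0 by limma. At an unadjusted p under 0.05 there were 17 of the 97, beside 107 of 639 over the locus. At P90 the mean of each of the 4 CpGs lay above its P60 mean in all 5 segments and with both milks, and in segment 1 128355588 had 63.8% to 85.9% (median 74.5%) in lac- and 73.9% to 79.9% (median 76.3%) in LAC+ mice. In lac- segment 1 every merged file lay above every other file at all 4 CpGs, and in segment 4 at 2 of them. As no P60 file was merged, age and kind of file were not separated here.

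**Figure D4:**
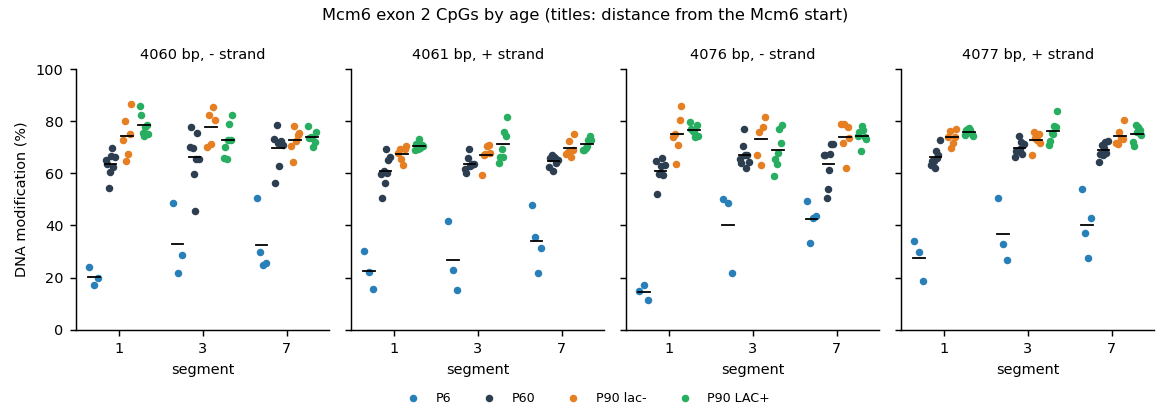
DNA modification (%) of the 4 exon 2 CpGs in segments 1, 3 and 7; dots are single samples of P6, P60, P90 lac- and P90 LAC+ and bars are group means. The P6 samples lie below the P60 samples in every panel and segment except at the minus-strand CpG 4060 bp from the start in segment 3.

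Within intron 6, neighbouring CpGs differed by age in opposite directions. At 128348714 P6 segment 3 had 65.5%, 51.7% and 55.7%, and the P60 samples lay between 76% and 81.6% (median 78.9%), a difference of 21.2 points (standard error 4.15, exact permutation p = 0.0121). At 128348593 P6 segment 1 had 84.3%, 80.6% and 81.4% and P60 88.6% to 91.5% (median 91%), 8.54 points higher (standard error 1.18, exact permutation p = 0.0121). Between them, 128348622 was lower at P60. In segment 7 it had 77.8%, 73.0%, 75.8% and 76.5% in P6 and 65.1% to 69.8% (median 68.2%) in P60, where it fell by 7.91 points (standard error 1.18, exact permutation p = 0.00404). Its plus strand, 128348621, was 11.6 points lower at P60 there. None of these passed the Bonferroni threshold, the nearest being 128348714 in segment 1 (adjusted p = 0.0436).

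Over the stretch, 13 CpGs had every P60 above every P6 sample in segment 1 and 5 every P60 sample below (12% and 6.29% over the locus). In segment 3 these were 9 and 3 (12.5% and 3.46%), and in segment 7 12 and 6 (16.4% and 4.44%). Of those above, exon 2 gave 4, 3 and 4 and intron 6 gave 2, 2 and 2, the latter being 128348593 and 128348714 each time. At 128343056 in intron 10, P60 was below P6 without overlap in all 3 segments, by 12.7 points (standard error 1.16) in segment 1 and by 12.5 points (standard error 2.88) in segment 3.

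Within P6, 0 of 97 CpGs were called across segments 1, 3 and 7 (0% over the locus) by the quasi-binomial F test and 0 by limma. At an unadjusted p under 0.05 there were 13 of the 97, beside 60 of 639 over the locus. Without a model, 15 CpGs had every segment 7 sample above every segment 1 sample (9.12% over the locus) and 9 above every segment 3 sample (4%), and none was below (3.71% and 2.31%). In intron 6, 128348622 had 64.3%, 59.6% and 63.7% in segment 1 and 77.8%, 73.0%, 75.8% and 76.5% in segment 7, a difference of 13.3 points (standard error 1.80). The exact permutation p was 0.0571, the smallest that 4 against 3 samples can give. Of the 21 CpGs called at P60, 20 were higher in P6 segment 7 than in segment 1 (median 4.96 points), beside 58 of the other 76 and 323 of the 571 CpGs outside.

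The 2 kinds of milk were compared in each segment, over CpGs with a mean of at most 90%. No CpG was called: 0 of 60, 49, 52, 46 and 48 in segments 1, 3, 4, 7 and 8 (0% over the locus in each) by the quasi-binomial F test. At an unadjusted p under 0.05 there were 7, 1, 4, 6 and 10. Over the locus there were 28 of 411, 19 of 357, 23 of 386, 46 of 323 and 68 of 332. Limma called 0 in segments 1, 3, 4 and 7 and 2 in segment 8. The diet by segment interaction called 0 of 49 (0%), and 0 by limma. At an unadjusted p under 0.05 there was 1 of the 49, beside 21 of 353 over the locus.

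The CpGs nearest to a call were in intron 9, in segment 8. At 128343956 the 7 LAC+ samples had 81.5% to 88.3% (median 84.6%) and the 7 lac- samples 89.8% to 94.4% (median 92.1%), which did not overlap. LAC+ was lower by 7.52 points (standard error 1.14, exact permutation p = 0.000583) and the adjusted p was 0.0228. The CpGs 128343940 and 128343948, in the same reads, also had every LAC+ sample below every lac- sample, and these 3 were the only such CpGs of the locus (0.45%). In segment 8, 6 of 7 LAC+ files were merged and 1 of 7 lac- files. With the mark of a merged file as a covariate the lowest adjusted p of segment 8 was 0.71. The 1 unmerged LAC+ file had 87.5% and the 1 merged lac- file 89.8%. In segments 1, 3, 4 and 7 the same CpG differed by -4.08, -1.75, 0.23 and -3.31 points (standard errors 1.66, 1.12, 0.76 and 1.52), with overlap. Single low samples at this CpG also occurred at P60, down to 85.5% in segment 4, 82.2% in segment 6 and 83.5% in segment 9.

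**Figure D5:**
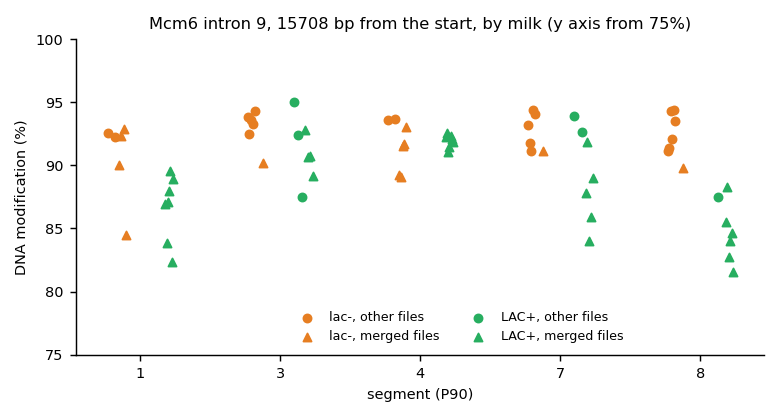
DNA modification (%) of the intron 9 CpG 128343956 in P90 samples, by segment and milk; dots are single files and triangles merged files, on an axis that starts at 75%. In segment 8 the LAC+ samples lie between 81.5% and 88.3% and the lac- samples between 89.8% and 94.4%, and 6 of the 7 LAC+ symbols are merged files.

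The P90 lac- mice were last compared with the P60 mice, which drank water, so that age, milk and sequencing run cannot be told apart. None of the CpGs was called: 0 of 97 in segments 1 and 4 and 0 of 96 in segments 3, 7 and 8 (0%, 0.15%, 0.154%, 0% and 0% over the locus) by the quasi-binomial F test and 0 in each by limma. At an unadjusted p under 0.05 there were 30, 48, 20, 19 and 23 in segments 1, 4, 3, 7 and 8. Over the locus there were 360 of 668, 139 of 649, 92 of 642 and 123 of 660 in segments 4, 3, 7 and 8. The share in the stretch was below that of the locus in segments 1, 3 and 4 and above it in segments 7 and 8. In segment 4, 128353235 had 22.3% to 59.2% (median 53.6%) in lac- and 23.4% to 39% (median 27.9%) in P60, and the 2 files that were not merged lay at 22.3% and 27.8%, inside or just below the P60 range. At 128351517 all 7 lac- samples of segment 4, 67.3% to 78.6% (median 69.4%), lay below the P60 samples, 78.8% to 82.5% (median 81%), and fell by 9.12 points (standard error 1.76, exact permutation p = 0.000311). The unmerged files there had 77.4% and 78.6%.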

How the data were processed

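Bisulfite-treated DNA was captured with padlock probes, whose arms anneal on either side of a stretch that is then copied, and sequenced. The authors trimmed reads (Trimmomatic 0.32), mapped them with Bismark and deposited, per sample and cytosine, counts of modified and unmodified reads on GRCm38, without normalization. Merged files and sequencing lanes were read from the file names.

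Percent modification was computed from these counts at cytosines with more than 30 reads. At every cytosine of the *Lct*–*Mcm6* locus that had such coverage in 3 or more samples per group, the groups were tested by a quasi-binomial F test, whose dispersion came from the spread between samples and was not allowed under 1. Bonferroni correction ran over CpGs and CpHs, or for diet over CpGs with a mean of at most 90%, at a threshold of 0.01. Single CpGs were compared with 2-sided exact permutation tests over samples, without correction for the number of CpGs. Nothing in the labels says that samples of a group came from separate litters, and p-values measure the spread between these samples. The scripts were tested on simulated data. The file of P60 segment 1 replicate 4 is marked as a repeat and may be a second library of the mouse of replicate 1. These were the closest of the 28 pairs in that segment, though farther apart than read sampling, which would also hold for 2 libraries of 1 mouse. They were counted as 2 samples, as the labels list them, so that n = 8 may be 7 mice there. Named are the CpG with the lowest p over the P60 segments in each feature, the 6 lowest of the stretch, up to 4 calls (or the lowest p) of each other comparison, their opposite strands, and the least modified and most variable CpGs. The other called CpGs and the 2 neighbours of 128343956 were named after their values were seen. The stretch, its CpGs and the tests were chosen with earlier results of these data known. Promoter and protein sequences were not used here. Sequences are from the GRCm38 reference and, for the probe arm, from the study's probe list. Python 3.11.15, NumPy 2.4.6, SciPy 1.17.1, pandas 2.3.3, Matplotlib 3.10.9, R 4.3.3 and limma 3.58.1 were used.

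Tried as alternatives were minimums of 10 or 100 reads, adjustment by Benjamini-Hochberg (at 0.05) or by Bonferroni over CpGs alone, limma on log2 odds (0.5 added to each count), a term for sequencing lane, the replicate number as block, CpGs read only in a probe arm left out, and samples left out. Those on merged files, the number in the file name as a block and LAC+ segment 3 replicate 7 were chosen after seeing the data.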

Additional observations from a re-analysis of the deposited data

Results flagged for a closer look

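Samples were looked at in 280 groups of 4 to 8, over 13 CpGs and the mean of the stretch, and 15 (5.36%) had 1 sample far from the rest of its group by Dixon's criterion, where chance gives about 1 in 20. Of these, 8 lay in P60. At the intron 9 CpG 128343956, P60 segment 4 replicate 1 had 85.5% and segment 5 replicate 7 had 89.0%, below the others of their segments, and lac- segment 1 replicate 6, a merged file, had 84.5%. In intron 6, 128348593 was low in P60 segment 4 replicate 5 (88.4%) and high in lac- segment 8 replicate 3 (93.5%). In exon 4, 128351506 was low in P60 segment 1 replicate 2 (67.6%), in P60 segment 4 replicate 3 (84.7%) and in LAC+ segment 3 replicate 7 (62.1%), and 128351517 was low in LAC+ segment 1 replicate 1 (56.4%). At 128353235 in intron 3, P60 segment 7 replicate 7 had 49.8% where the next sample had 39.6%. At 128343459 in exon 10, P60 segment 4 replicate 1 had 87.0%. In exon 2, 128355604 was high in P60 segment 5 replicate 7 (90.1%), 128355588 low in lac- segment 4 replicate 5 (67.3%) and 128355603 low in lac- segment 3 replicate 1 (59.5%). The mean over the stretch was low in LAC+ segment 1 replicate 7 (80.8%).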

How the results depend on the processing

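Of the recomputed counts of called CpGs, 174 stayed within 1.5 times the value reported and 29 moved. Calls over the whole locus were not counted under these alternatives. The counts below therefore do not show whether the stretch differs from the locus. The 21 calls along the P60 segments were 14 with limma, 19 with the replicate block, 20 with lane and 31 with Benjamini-Hochberg correction. Benjamini-Hochberg correction gave 14, 9 and 21 calls by age in segments 1, 3 and 7, 3 by diet in segment 8, 23 and 32 along the lac- and LAC+ segments, and 2, 23, 1 and 1 for lac- against P60 in segments 3, 4, 7 and 8. Bonferroni over CpGs only gave 7 and 2 by age in segments 1 and 3 and 7 and 15 along the lac- and LAC+ segments. A minimum of 100 reads left 0 age calls in segment 1, as neither of the 2 CpGs then had 3 P6 samples to be tested. Limma gave 2 by diet in segment 8 and 0 along the LAC+ segments. With the replicate block, age in segment 1 gave 0, lac- segments 5 and LAC+ segments 6, and no other count moved past 1.5 times. The labels do not say what a replicate number marks. The mean r between deviations of samples with the same number was 0.038 in P60, -0.015 in lac-, 0.023 in LAC+ and 0.38 in P6 (-0.14 for different numbers there). The lowest pair was below 0.1 in each. The lowest of many pairs can be that low among paired samples too, so it cannot decide on pairing. No pairing was used in the main fits, and whether samples of a number share a mouse was not tested. For the number in the file name the mean r was 0.077 in P60 and 0.16 in lac- (-0.028 for different numbers). The number in the file name as a block gave 8 and 6. Lane as covariate left 1 lac- segment call, not among the 3, and the LAC+ segments could not be fitted with lane. Leaving out merged files gave 7 lac- calls, with 2 samples in segments 1 and 4, and leaving out LAC+ segment 3 replicate 7 gave 5 LAC+ calls. Leaving out single P6 samples gave 1 to 3 calls in segment 1 (1 without replicate 2, and 1 CpG that was not among the 2 without replicate 3), 0 to 3 in segment 3 (3 without replicate 1) and 0 to 1 in segment 7 (1 without replicate 1). The mean P60 level, 83.2%, was 87.1% from pooled reads, 85.8% without the CpGs read only in a probe arm and 84.6% over CpGs covered in every sample. The cause of these moves was not tested. The median depth per CpG was at least 484 reads in every sample, but medians on the minus strand of exon 2 were 169 to 194 reads in P6.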
